A study of Mus musculus with 20 samples.

Results

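The insulin receptor signalling genes are 10 mouse genes: the receptor Insr, the docking proteins Irs1 and Irs2, the lipid kinase subunit Pik3r1, the kinases Akt1 and Akt2, the transcription factor Foxo1, and the negative regulators Ptpn1, Grb14 and Socs3. DNA methylation was read at their CpGs by reduced representation bisulfite sequencing (RRBS) of male offspring livers. RRBS sequences the CpG-rich fragments that the enzyme MspI cuts at CCGG, and bisulfite treatment then changes only unmethylated cytosines, which makes every read a vote for or against methylation at its CpGs. The genes were taken as listed by name, not by any measured value. A CpG was kept when it lay between 5 kb upstream of the transcription start site (TSS), taken as the outer start of the annotated gene, and the gene end and had at least 10 reads in at least 3 libraries of each of 4 groups. This left 809 CpGs in 147 windows of 200 bp, called bins below, of 922846 CpGs and 234985 bins kept in the whole series.

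The groups were AME-d21, AME-d0, Con-d21 and Con-d0, with 5 libraries each and 20 in all. All mice were wild-type C57BL/6J. AME, an adverse maternal environment, joined a Western-style diet of the dam, from before pregnancy through lactation, with moderate stress of the dam late in pregnancy. Con offspring came from dams on a control diet without that stress. Livers were taken at birth (d0) or at weaning (d21), so that d21 pups had been nursed by dams still on their diet. Per the paper, d0 pups were taken by Caesarean section. The d21 pups came from other dams that gave birth naturally, and these pups were fasted before their livers were taken. In the age comparisons these differences cannot be told apart from age. Whole liver was ground, and each library therefore averaged over all of its cells. The labels do not say whether the 5 libraries of a group came from separate litters, and p-values below measure the spread between these libraries only.

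Insulin binds its receptor, a tyrosine kinase at the cell surface, which phosphorylates the insulin receptor substrates Irs1 and Irs2. These recruit phosphoinositide 3-kinase through its regulatory subunit, the product of Pik3r1, and the lipid it makes brings Akt kinases to the membrane. In liver Akt keeps Foxo1 out of the nucleus, which lowers the genes for making glucose. The phosphatase encoded by Ptpn1, the adaptor encoded by Grb14 and the cytokine-induced inhibitor encoded by Socs3 each dampen the receptor or its substrates.

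Libraries held 23248139 to 45769589 reads over CpGs. A library did not match its label: AME-d21 replicate 4, labelled male, had 2.88 X-linked reads for each 100 autosomal ones, where the other 19 libraries had 1.40 to 1.55, with 16.2 per 1000000 reads falling on the short arm of the Y, where the others had 168 to 216. The counts of called bins, gene windows and CpGs that use it are given also without it. AME-d0 replicates 1 and 3 were the lowest in methylation over all bins measured in every library, at 47.7% and 49.5%, with 50.9% to 53.5% in the other d0 libraries. Those bins averaged 57.9% ± 0.225 in AME-d21, against 50.3% ± 1.72 in AME-d0, and averaged 57.9% ± 0.145 in Con-d21, against 51.6% ± 1.06 in Con-d0 (SD, n = 5 each). The 122 member bins measured in every library moved less, with 34.3% ± 0.462 in AME-d21, against 32.8% ± 0.659 in AME-d0, and with 34.3% ± 0.146 in Con-d21, against 33.9% ± 0.458 in Con-d0 (SD, n = 5 each).

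The sequences of 7 bins on which the age comparison turned are given here, so that the measured CpGs can be seen in place. They are shown 5′ to 3′ on the strand of their gene, from GRCm38 (mm10), with each measured CpG in capitals. A CpG in lower case was in the genome but was not kept. The 3 Irs2 bins and the Irs1 bin are coding sequence and fell with age, the Insr bin at 26.7 kb is intronic and fell, and the Insr bin at 28.5 kb is intronic and rose. The Socs3 bin is coding sequence and rose in Con livers, and its leading capital G belongs to a CpG that the edge of the bin divides.
Irs2, 2.36 kb, chr8:11006001-11006200, minus strand: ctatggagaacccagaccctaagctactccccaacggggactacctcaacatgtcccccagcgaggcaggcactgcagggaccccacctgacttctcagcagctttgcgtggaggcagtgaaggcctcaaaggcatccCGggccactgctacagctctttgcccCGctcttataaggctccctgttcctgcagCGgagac
Irs2, 2.96 kb, chr8:11005401-11005600, minus strand: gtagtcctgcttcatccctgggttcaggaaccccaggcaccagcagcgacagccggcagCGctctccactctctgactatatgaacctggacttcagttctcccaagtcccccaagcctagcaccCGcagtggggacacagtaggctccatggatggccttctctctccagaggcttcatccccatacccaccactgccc
Irs2, 3.76 kb, chr8:11004601-11004800, minus strand: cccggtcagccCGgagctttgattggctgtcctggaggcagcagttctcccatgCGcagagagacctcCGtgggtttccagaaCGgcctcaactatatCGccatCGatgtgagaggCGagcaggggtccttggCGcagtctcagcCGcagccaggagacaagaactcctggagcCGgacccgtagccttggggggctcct
Irs1, 3.72 kb, chr1:82287601-82287800, minus strand: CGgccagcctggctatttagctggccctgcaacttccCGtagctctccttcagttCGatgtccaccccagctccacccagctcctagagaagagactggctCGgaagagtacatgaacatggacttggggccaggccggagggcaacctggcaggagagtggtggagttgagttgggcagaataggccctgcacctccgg
Insr, 26.7 kb, chr8:3252801-3253000, minus strand: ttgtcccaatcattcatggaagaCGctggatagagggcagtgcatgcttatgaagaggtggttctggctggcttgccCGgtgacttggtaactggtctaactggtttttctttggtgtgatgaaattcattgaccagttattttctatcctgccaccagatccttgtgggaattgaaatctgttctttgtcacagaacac
Insr, 28.5 kb, chr8:3251001-3251200, minus strand: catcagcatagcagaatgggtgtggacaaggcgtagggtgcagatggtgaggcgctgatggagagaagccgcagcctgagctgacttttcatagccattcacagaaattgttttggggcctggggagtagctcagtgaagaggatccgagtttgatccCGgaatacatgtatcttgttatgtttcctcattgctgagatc
Socs3, 1.95 kb, chr11:117968001-117968200, minus strand: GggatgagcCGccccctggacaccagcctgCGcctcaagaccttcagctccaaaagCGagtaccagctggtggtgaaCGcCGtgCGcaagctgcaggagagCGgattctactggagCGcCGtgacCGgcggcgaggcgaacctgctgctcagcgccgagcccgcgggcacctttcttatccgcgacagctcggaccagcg

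Coverage was uneven among the genes. Akt1 had 131 kept CpGs, Irs2 125, Pik3r1 123, Foxo1 99, Ptpn1 99, Socs3 75, Irs1 68, Insr 59, Akt2 22 and Grb14 8. The kept CpGs were 9.31% of the 8693 CpGs in the gene windows, and 319 lay within 1 kb of the TSS, 42 farther upstream and 448 in the gene body. No kept CpG of Grb14 lay within 1 kb of its outer TSS, so that it has no value among the promoters. Its 8 CpGs lay in the first exon of its longest coding transcript, in a bin centred 281.5 bp from the start of that transcript.

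The promoters of the receptor and of its substrates were almost free of methylation at both ages. Over the kept CpGs within 1 kb of the TSS, Insr ran from 0 to 0.559% over the 20 libraries, Irs1 from 0 to 1.45% and Irs2 from 0.0889% to 0.674%. Downstream in the pathway, Pik3r1 ran from 0.055% to 0.679%, Akt2 from 0 to 0.871%, Foxo1 from 0 to 0.491% and Akt1 from 1.95% to 4.94%. Among the negative regulators, Socs3 ran from 0 to 0.556% and Ptpn1, the only member promoter with more methylation than this, from 8.80% to 15.6%. A library at 0 in the Socs3 promoter, read 80 to 300 times, allows a level of up to 3.75% at the lowest depth and 1% at the highest, and in the Insr promoter, read 351 to 1159 times, up to 0.855% and 0.259%. These limits cover counting error only. The Pik3r1 promoter fell with age in Con livers by a small amount, to 0.183% ± 0.0678 in Con-d21, against 0.474% ± 0.137 in Con-d0 (SD, n = 5 each; limma, adjusted p = 0.0117). In AME livers it had 0.276% ± 0.174 at d21 and 0.373% ± 0.192 at d0 (SD, n = 5 each; limma, adjusted p = 0.791). This promoter was read 1120 to 2754 times per library, so its levels rest on few methylated reads, and promoter calls had no minimum difference. It was the only one of the 9 promoters called in either age comparison, in both of which 0 were called higher. Of the 18323 promoters in the genome, 20.9% were called higher and 3.13% lower in AME livers at d21, and 19.8% higher and 3.86% lower in Con livers.

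Away from the promoters the genes changed with age, in both directions. A bin was called when its adjusted p, by limma over all bins of the genome, was under 0.05 and its group means differed by at least 10 percentage points. In AME livers 45 of 147 member bins were called, 29 higher and 16 lower at d21. That is 19.7% higher and 10.9% lower, beside 32.1% higher and 2.56% lower over all bins of the genome. In Con livers 39 were called, 22 higher and 17 lower, or 15% higher and 11.6% lower beside 26.7% higher and 2.98% lower over all bins. The median age difference of the member bins was 0.606 points in AME livers and 0.238 points in Con livers, where all bins had medians of 7.79 and 6.40 points. Member bins below 5% in both groups were 56 of 147 in either comparison, or 38.1%, against 19.2% of all bins in AME livers and 19.4% in Con livers. The 38 bins centred within 1 kb of the outer TSS of a gene held 1 of all these calls, a bin upstream of Ptpn1 in Con livers, and the other calls lay among the 109 bins farther away. Some of these lay at inner starts. Of the 54 bins centred within 1 kb of the start of any coding transcript, 3 were called in AME livers and 3 in Con livers, all in Pik3r1 or Akt1. Without AME-d21 replicate 4 the AME count was 44, with 29 higher and 15 lower, beside 30.5% higher and 2.43% lower over all bins. Without AME-d0 replicates 1 and 3 the AME count was 36, with 21 higher and 15 lower. The shares over all bins were not counted for that setting, so the 36 cannot be set beside those given above.

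The same bins were called in both age comparisons more often than not, with the same sign. Of the bins called in AME livers, 32 were also called in Con livers, all 32 in the same direction, 16 higher and 16 lower, while 13 were called in AME livers only and 7 in Con livers only. The same overlap was not counted over all bins of the genome, so it is not known whether it is particular to these genes. Without AME-d21 replicate 4, 31 were called in both, 16 higher and 15 lower, 13 in AME livers only and 8 in Con livers only. An Insr bin at 16.5 kb and a Pik3r1 bin at 10.7 kb then lost their AME call, at -15.3 and 12.9 points, and the Akt1 bin at 11.4 kb gained one, at 10.1 points, while the calls of the other genes did not change. The AME and Con age comparisons share no library. Whether a bin called in only one of them differed in its age change between AME and Con was tested by the interaction, given further on, which called none.

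**Figure D1:**
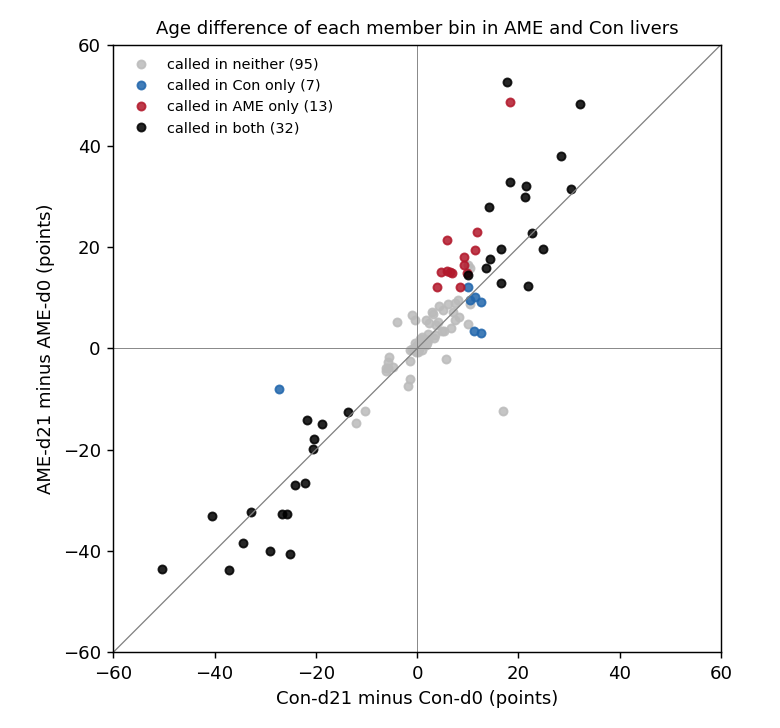
Age difference of each of the 147 member bins in Con livers (horizontal axis, Con-d21 minus Con-d0, percentage points) and AME livers (vertical axis, AME-d21 minus AME-d0, percentage points), with a line of equality. The 32 bins called in both lie to the lower left and the upper right, 13 bins were called in AME livers only and 7 in Con livers only, and most of the 95 called in neither lie near 0.

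Insr, the receptor itself, gained and lost methylation at neighbouring places in its introns. In each age comparison 7 of its 16 bins were called, 3 higher and 4 lower at d21. The bin 26.7 kb downstream of the TSS, printed above with its 2 CpGs and 60 to 151 reads per library, fell the most. It had 38.3%, 27.7%, 33.8%, 38.3% and 35.7% in AME-d21 libraries, against 75.9%, 76%, 76.7%, 86% and 76.5% in AME-d0 libraries. Con-d21 libraries had 27.2%, 38.7%, 26.5%, 25.3% and 34%, against 85.9%, 77.3%, 79.4%, 80.8% and 80.1% in Con-d0 libraries. No d21 library came near a d0 library. The bin fell by 43.5 points in AME livers (limma, adjusted p = 2.63e-05) and fell by 50.4 points in Con livers (limma, adjusted p = 6.11e-06). Less than 2 kb farther into the same gene, the bin at 28.5 kb went the other way. Its single measured CpG, with 10 to 31 reads per library, had 100%, 90%, 100%, 81.8% and 92.3% in AME-d21 libraries, against 53.3%, 44%, 30%, 39.3% and 56.5% in AME-d0 libraries. It had 95.7%, 92.3%, 96%, 84.2% and 87% in Con-d21 libraries, against 72.2%, 63%, 52.4%, 48.3% and 58.1% in Con-d0 libraries. The groups did not overlap at either maternal environment, and the rise was 48.2 points in AME livers (limma, adjusted p = 8.12e-05) and 32.2 points in Con livers (limma, adjusted p = 0.000261).

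The other named Insr bins were thinner in reads. At 28.7 kb the level was 89.9% in AME-d21 and 58.4% in 4 AME-d0 libraries, and 88.5% in Con-d21 and 58% in Con-d0, called higher in both. At 26.9 kb it was 58.6% in AME-d21 and 91.4% in AME-d0, with 4 libraries each, and 51.9% in Con-d21 and 77.6% in Con-d0, called lower in both. The bin at 9.12 kb fell by 38.5 points in AME livers, to 30.8% ± 14.9 in AME-d21 (SD, n = 4), against 69.3% ± 7.24 in AME-d0 (SD, n = 5), and fell by 34.5 points in Con livers, to 20.9% ± 12.6 in Con-d21 (SD, n = 5), against 55.3% ± 8.13 in Con-d0 (SD, n = 4). Libraries under 10 reads in a bin were left out of it, which is why n is below 5. At 16.3 kb a single CpG reached 98.5% ± 3.44 in AME-d21 (SD, n = 5), against 49.7% ± 15.1 in AME-d0 (SD, n = 4; limma, adjusted p = 4.98e-05), and had 87.6% ± 12 in Con-d21 (SD, n = 5) and 69.2% ± 3.49 in Con-d0 (SD, n = 3; limma, adjusted p = 0.068). The smallest of the called rises, at 54.1 kb, was 11.4 points in Con livers and was lost when any of Con-d21 replicates 1, 4 and 5 or Con-d0 replicates 1, 2, 3 and 4 was left out. Without 1 library it ran from 10.4 to 12.6 points.

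Irs2, the substrate that carries much of insulin's signal in liver, lost methylation in each bin called. Of its 19 bins 6 were called in AME livers and 7 in Con livers, all of them lower at d21. Of these, 4 lay in the long coding exon, 2 in the intron after it and 1 in the 3′ untranslated part. The bin at 2.36 kb, with 3 CpGs and 44 to 127 reads per library, had 40%, 32.8%, 61.2%, 22.7% and 19% in AME-d21 libraries, against 87.1%, 77.1%, 78.5%, 71.4% and 81% in AME-d0 libraries. Con-d21 libraries had 50%, 44.9%, 38.9%, 34.7% and 42.9%, against 75.3%, 65.2%, 92.2%, 85.8% and 78.5% in Con-d0 libraries. All d21 libraries were below all d0 libraries. The bin fell by 43.8 points in AME livers (limma, adjusted p = 0.000356) and fell by 37.1 points in Con livers (limma, adjusted p = 0.000513).

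The best-read stretch of that exon, at 3.76 kb with 10 CpGs and 193 to 619 reads per library, showed the same fall. AME-d21 libraries had 44.6%, 27.5%, 45.7%, 31.1% and 25.8%, against 75.5%, 65.2%, 52.5%, 72.2% and 74.7% in AME-d0 libraries. In Con-d21 libraries it was 29.6%, 35.7%, 38.3%, 36.6% and 31%, against 81%, 68.1%, 70.9%, 71.5% and 82.6% in Con-d0 libraries. Again the ages did not overlap, and the level fell by 33.1 points in AME livers (limma, adjusted p = 0.000924) and fell by 40.5 points in Con livers (limma, adjusted p = 5.20e-05). The bin between these, at 2.96 kb, had 2 CpGs and 18 to 54 reads per library, and fell to 35.4% ± 10.6 in AME-d21, against 75.4% ± 10.1 in AME-d0, and to 45.4% ± 8.06 in Con-d21, against 74.5% ± 7.78 in Con-d0 (SD, n = 5 each). In the 3′ untranslated part, 22.0 kb from the TSS, 5 CpGs fell to 63.3% ± 6.04 in AME-d21, against 90.2% ± 2.25 in AME-d0 (limma, adjusted p = 7.12e-05), and to 66.1% ± 1.79 in Con-d21, against 90.2% ± 1.37 in Con-d0 (SD, n = 5 each; limma, adjusted p = 3.77e-05). The coding bin at 3.16 kb fell in Con livers, to 15.2% ± 8.40 in Con-d21, against 42.5% ± 7.84 in Con-d0 (limma, adjusted p = 0.00232), and had 19.6% ± 12.2 in AME-d21 and 27.5% ± 13.2 in AME-d0 (SD, n = 5 each; limma, adjusted p = 0.309). A bin at 21.8 kb differed the other way in Con livers, at 97.8% ± 2.10 in Con-d21 and 87.9% ± 6.27 in Con-d0 (SD, n = 5 each; limma, adjusted p = 0.00717). The groups did not overlap, and the difference of 9.95 points missed the minimum of 10.

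**Figure D2:**
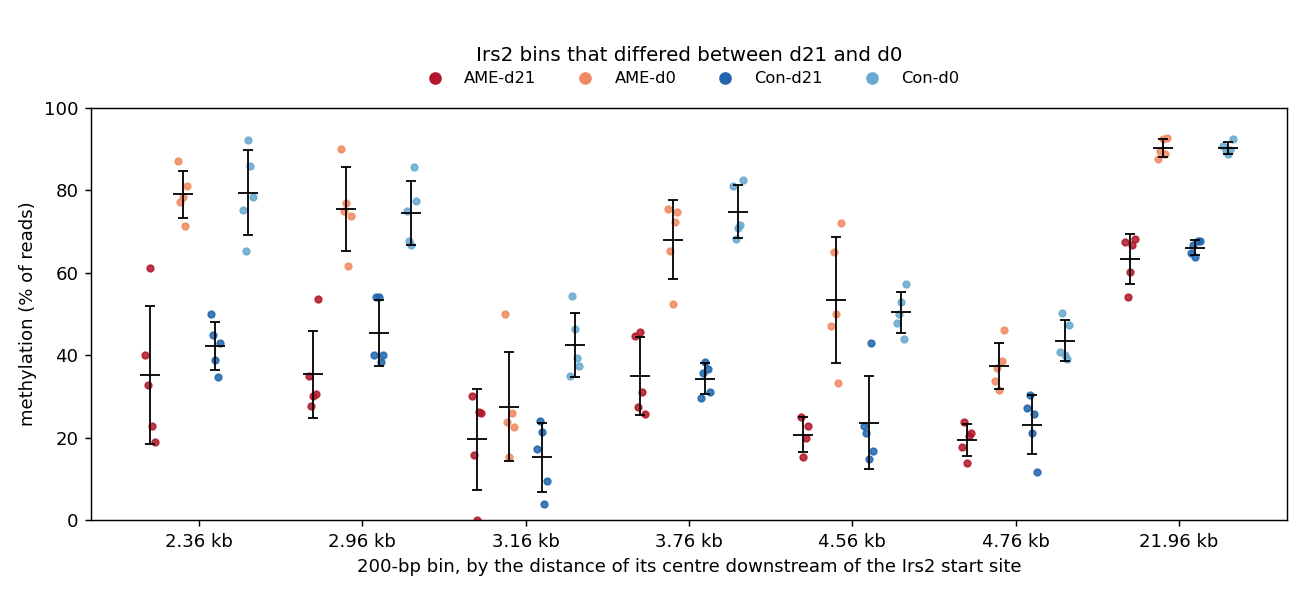
Methylation in percent of reads (vertical axis) at the 7 Irs2 bins called in an age comparison, by distance from the Irs2 TSS, with 1 point per library, the mean as a bar and the SD as whiskers. At 2.36 kb the AME-d21 libraries lie between 19% and 61.2% and the AME-d0 libraries between 71.4% and 87.1%, with the Con-d21 and Con-d0 libraries set apart in the same way.

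Irs1, the other main substrate, had 2 stretches of change. Its coding exon fell at 3.72 kb, over 4 CpGs with 16 to 100 reads per library. AME-d21 libraries had 28.1%, 41.1%, 50%, 27.1% and 40%, against 71.6%, 87.5%, 81.8%, 76.6% and 72.2% in AME-d0 libraries. Con-d21 libraries had 43.2%, 52.1%, 56.2%, 54.4% and 40%, against 69.4%, 75%, 79.8%, 72.2% and 75% in Con-d0 libraries. The ages did not overlap, and the level fell by 40.7 points in AME livers (limma, adjusted p = 0.000143) and fell by 25.1 points in Con livers (limma, adjusted p = 0.00128). Far into the intron, at 46.1 kb, a single CpG rose to 68.3% ± 14.2 in AME-d21 (SD, n = 3), against 30.3% ± 11.5 in AME-d0 (SD, n = 5; limma, adjusted p = 0.00397), and to 64.4% ± 12.6 in Con-d21, against 36.1% ± 21.5 in Con-d0 (SD, n = 5 each; limma, adjusted p = 0.0294). The Con call there was lost without any of Con-d21 replicates 2, 3 and 4 or Con-d0 replicates 1 and 3, with values from 21.1 to 33.6 points. The neighbouring bin at 46.3 kb rose in AME livers, by 19.4 points. That call was lost without AME-d21 replicate 2, at 16.5 points, and without AME-d0 replicate 2, at 16.3 points.

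Pik3r1 had the most called bins, 12 of 27 in AME livers with 9 higher and 3 lower, and 10 in Con livers with 7 higher and 3 lower. The gene starts a long transcript of 724 codons at its outer TSS and a shorter one of 454 codons 75.6 kb farther in. The falls included the start of the shorter transcript. There, 75.9 kb from the outer TSS, 2 CpGs with 18 to 94 reads per library had 14.3%, 18.5%, 16.7%, 26.7% and 36.1% in AME-d21 libraries, against 37.5%, 45.7%, 60%, 47.9% and 53.6% in AME-d0 libraries. Con-d21 libraries had 18.4%, 20.5%, 16.7%, 13.5% and 23.8%, against 44.1%, 27.8%, 28.3%, 51.9% and 51.1% in Con-d0 libraries. The ages did not overlap in either environment, and the level fell by 26.5 points in AME livers (limma, adjusted p = 0.00259) and fell by 22.1 points in Con livers (limma, adjusted p = 0.00484). The adjacent bin at 75.7 kb had 23.8% in AME-d21 and 37.9% in AME-d0, and 17.1% in Con-d21 and 38.9% in Con-d0. It was called lower in both, and its AME call was lost without any of AME-d21 replicates 1, 2 and 3 or AME-d0 replicates 3 and 5, with values from -16.2 to -11.4 points. A thinly read intron bin at 21.9 kb also fell in both, by 32.4 points in AME livers, where 4 AME-d21 and 3 AME-d0 libraries had a value, and fell by 32.7 points in Con livers, where 1 Con-d0 library had none.

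The rises of Pik3r1 lay in 2 clusters. Near 10 kb, the intron bin at 9.92 kb had 54.3%, 52.5%, 60.6%, 48.4% and 56.2% in AME-d21 libraries, against 25.8%, 10.5%, 28.8%, 21.3% and 20.8% in AME-d0 libraries. Con-d21 libraries had 43.2%, 37.8%, 42.7%, 50.5% and 50%, against 27%, 29.2%, 26.8%, 23.6% and 26% in Con-d0 libraries. Neither pair of groups overlapped, and the rise was 33 points in AME livers (limma, adjusted p = 0.000346) and 18.3 points in Con livers (limma, adjusted p = 0.00423). The bin beside it, at 10.1 kb, rose by 22.9 points in AME livers and 22.7 in Con livers, and its groups overlapped. Near 61 kb, between the TSSs, the bin at 61.7 kb reached 83.5% in AME-d21, against 53.5% in AME-d0, and 79.4% in Con-d21, against 58.1% in Con-d0. The single CpG at 61.5 kb rose to 83.3% ± 3.33 in AME-d21 (SD, n = 3), against 30.7% ± 12.3 in AME-d0 (SD, n = 5; limma, adjusted p = 0.000265), and to 69.2% ± 5.11 in Con-d21, against 51.5% ± 13.6 in Con-d0 (SD, n = 5 each; limma, adjusted p = 0.0436).

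**Figure D3:**
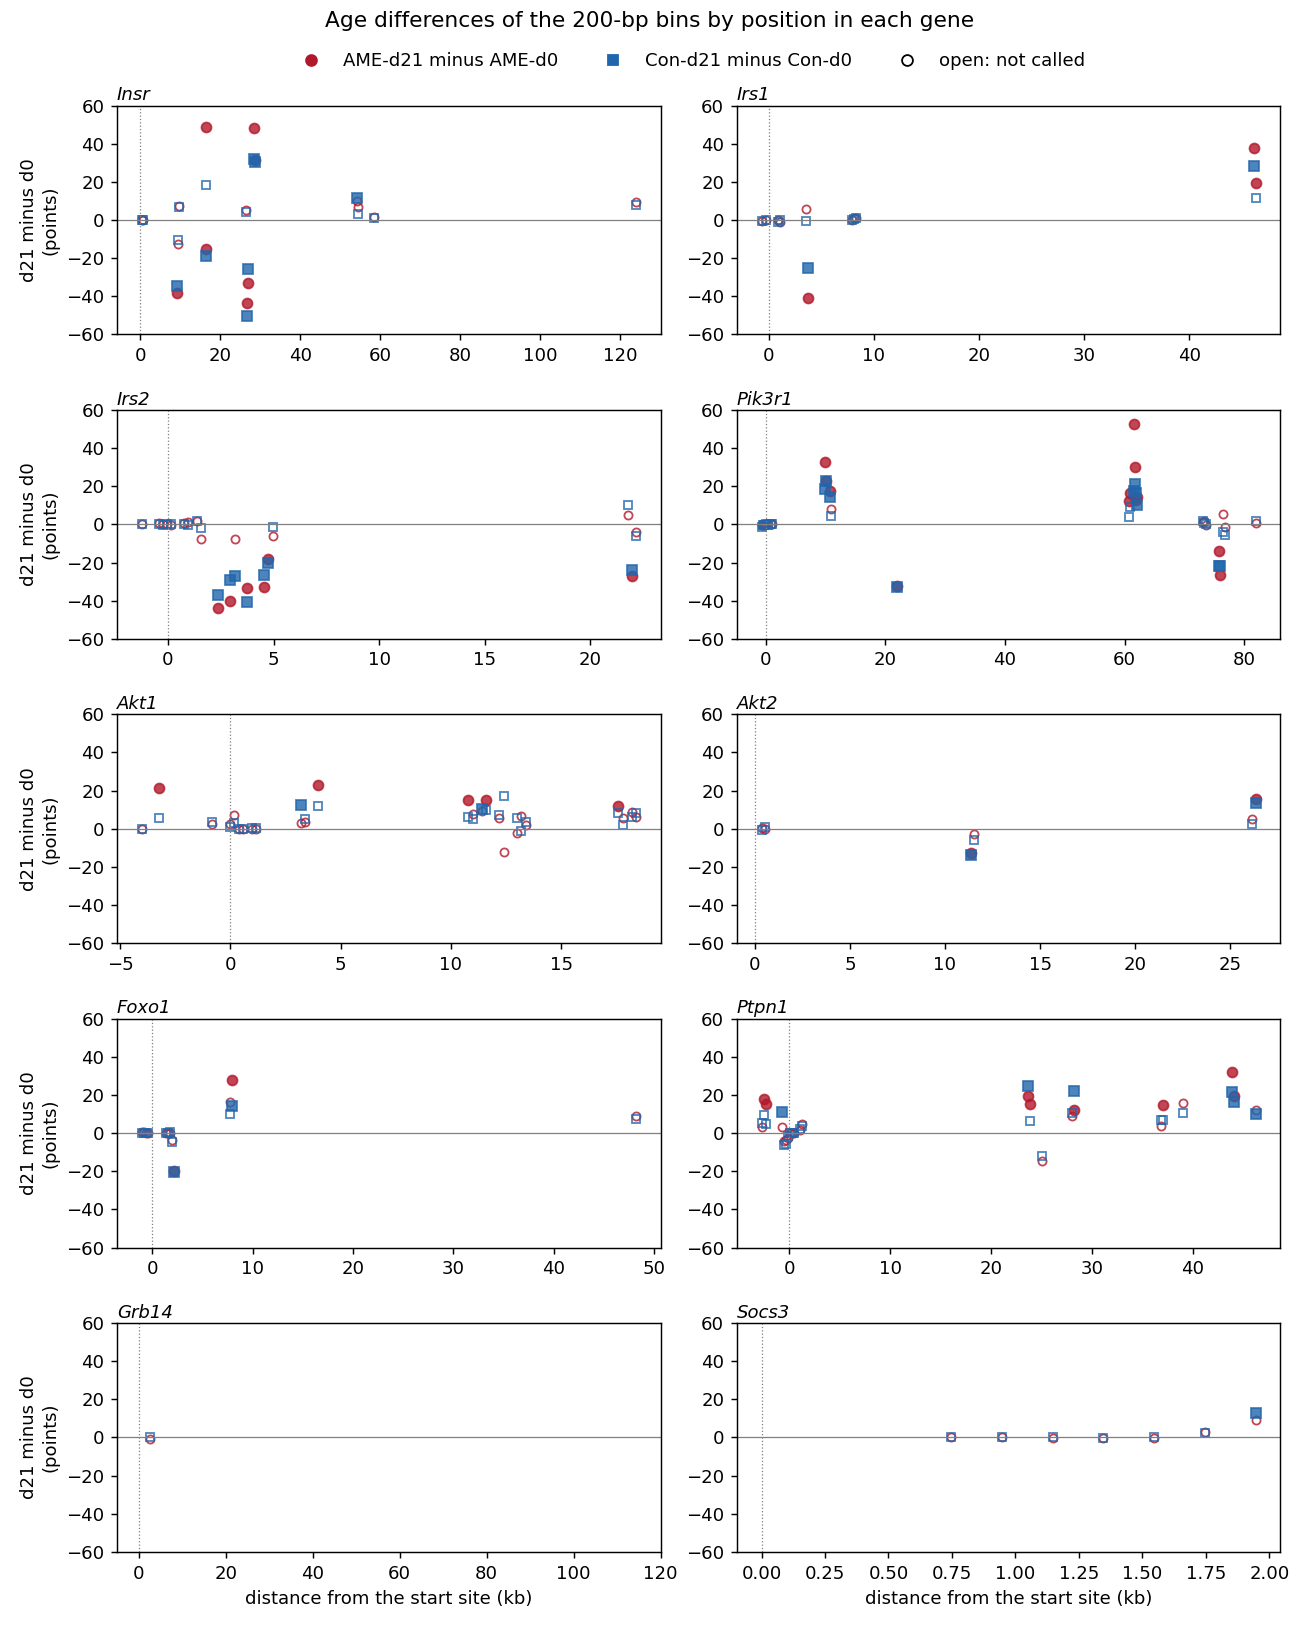
Age difference (vertical axis, d21 minus d0, percentage points) of every member bin against the distance of its centre from the TSS in kb (horizontal axis), 1 panel per gene, with circles for AME livers, squares for Con livers and filled symbols for called bins. Bins within 1 kb of the TSS differ by at most 7.17 points in AME livers and 11.2 points in Con livers, the called Irs2 bins all lie below 0, and Insr and Pik3r1 hold called bins on both sides of 0.

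The Akt kinases, which pass the signal on from the membrane, changed by smaller steps. Akt1 had 5 of 25 bins called in AME livers and 2 in Con livers, all higher. None of these 7 calls was the same bin, though without AME-d21 replicate 4 the bin at 11.4 kb was called in both. The largest, at 3.98 kb in an intron, reached 72.7% ± 7.43 in AME-d21, against 49.7% ± 10.1 in AME-d0 (limma, adjusted p = 0.00656), and had 67.9% ± 10.5 in Con-d21 and 56.1% ± 8.57 in Con-d0 (SD, n = 5 each; limma, adjusted p = 0.115). Upstream of the gene, 3.22 kb before the TSS, the level was 68.8% in 4 AME-d21 libraries and 47.4% in AME-d0, and at 10.8 kb it was 95.7% in AME-d21 and 80.5% in AME-d0. Both Con calls were close to the threshold: the bin at 3.18 kb rose by 12.7 points and that at 11.4 kb by 10.5 points, and either could be lost by leaving out a library. The call at 3.18 kb was lost without any of Con-d21 replicates 1, 3 and 4 or Con-d0 replicates 1, 4 and 5, with values from 10.5 to 16.1 points. The call at 11.4 kb was lost without Con-d21 replicate 2 or Con-d0 replicate 3 or 4, with values from 9.57 to 11.9 points.

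Akt2, the form through which insulin acts on glucose in liver, had 2 of 6 bins called in each comparison, 1 in each direction. An intron bin at 11.3 kb, with 2 CpGs and 77 to 188 reads per library, had 7.32%, 2.17%, 5.32%, 5.19% and 11.3% in AME-d21 libraries, against 17.2%, 23.1%, 13.6%, 16.1% and 24.4% in AME-d0 libraries. Con-d21 libraries had 2.97%, 7.41%, 5.07%, 3.28% and 13.5%, against 21.4%, 14%, 18.5%, 27.7% and 18.7% in Con-d0 libraries. Each d21 library was below each d0 library, and the level fell by 12.6 points in AME livers (limma, adjusted p = 0.00239) and fell by 13.6 points in Con livers (limma, adjusted p = 0.00229). At 26.3 kb the level rose to 98.6% in 4 AME-d21 libraries, against 82.8% in AME-d0, and to 95% in Con-d21, against 81.3% in Con-d0.

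Foxo1, the transcription factor that Akt restrains, had 2 of 12 bins called in each comparison. An intron bin, with 3 CpGs and 94 to 217 reads per library, was the nearest called bin to its TSS. AME-d21 libraries had 7.45%, 8.49%, 7.29%, 11.5% and 2.84%, against 32.7%, 30.2%, 16.7%, 25.2% and 32% in AME-d0 libraries. Con-d21 libraries had 5.73%, 11.8%, 4.35%, 6.25% and 8.33%, against 29.3%, 30.6%, 22.6%, 31.7% and 25.3% in Con-d0 libraries. The ages did not overlap, and the bin fell by 19.8 points in AME livers (limma, adjusted p = 0.000747) and fell by 20.6 points in Con livers (limma, adjusted p = 0.00014). The other, a single CpG at 7.96 kb, rose to 97.7% in 4 AME-d21 libraries, against 69.7% in AME-d0, and to 94.2% in Con-d21, against 80% in Con-d0.

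Ptpn1, whose phosphatase removes phosphate from the receptor, rose in each called bin, in 8 of 23 bins in AME livers and 6 in Con livers. Towards the 3′ end, at 43.8 kb, 4 CpGs with 34 to 118 reads per library had 60.9%, 72.9%, 70.6%, 67.8% and 57.1% in AME-d21 libraries, against 28.7%, 31.2%, 28.2%, 49.1% and 31.6% in AME-d0 libraries. Con-d21 libraries had 72%, 61.8%, 62.2%, 71.4% and 58.4%, against 63.2%, 49.1%, 31.3%, 30.2% and 45% in Con-d0 libraries. The AME groups did not overlap and the Con groups did, through the first Con-d0 library, with rises of 32.1 points in AME livers (limma, adjusted p = 0.000678) and 21.4 points in Con livers (limma, adjusted p = 0.0167). The next bin, at 44.0 kb, rose by 19.6 points in AME livers and 16.5 points in Con livers. At 23.6 kb the level reached 73.2% ± 9.08 in AME-d21, against 53.6% ± 6.69 in AME-d0, and 78.7% ± 4.64 in Con-d21, against 53.9% ± 8.10 in Con-d0 (SD, n = 5 each). At 28.2 kb it reached 21.8% ± 4.93 in AME-d21, against 9.55% ± 6.25 in AME-d0, and 27.6% ± 10.1 in Con-d21, against 5.62% ± 5.43 in Con-d0 (SD, n = 5 each).

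Socs3, which is induced by cytokines and blocks the receptor's contact with its substrates, gained methylation in its coding exon. The bin at 1.95 kb, with 11 CpGs and 238 to 747 reads per library, had 9.69%, 9.28%, 15.3%, 11.3% and 3.99% in AME-d21 libraries, against 1.03%, 1.10%, 1.46%, 0.524% and 0 in AME-d0 libraries. Con-d21 libraries had 9.11%, 12.4%, 18.7%, 14.7% and 12.2%, against 1.10%, 1.71%, 0.442%, 0.669% and 0 in Con-d0 libraries. All d21 libraries were above all d0 libraries in both environments. The rise of 12.6 points in Con livers was called (limma, adjusted p = 4.32e-05). The difference of 9.09 points in AME livers passed the adjusted p (8.81e-05 by limma) but not the minimum of 10 points. The other 6 bins of Socs3 were below 5% in all 4 groups. Grb14, an adaptor that binds the receptor, had a single bin, below 5% in all 4 groups and not called.

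Summed over the whole window of each gene, from 5 kb upstream to the gene end, the levels differed widely among the genes. Median levels over the 20 libraries were 36.6% for Insr, 36.1% for Akt1, 25.3% for Ptpn1, 21.5% for Pik3r1, 16.7% for Irs2, 7% for Akt2, 6.42% for Foxo1, 6.11% for Irs1, 0.850% for Socs3 and 0.284% for Grb14. The ranges of the neighbours Insr and Akt1 overlapped, at 29.6% to 41.1% and 31.3% to 42.2%, as did those of Akt2, Foxo1 and Irs1. Irs2, Pik3r1 and Ptpn1 overlapped too, at 10.3% to 24.9%, 15.9% to 25.2% and 19.6% to 29.9%. In both environments the mean of Irs2 was above that of Pik3r1 at d0 and below it at d21, with values given below. These values depend on which CpGs were kept in each gene. With age, 3 of the 10 genes were called in AME livers, with 2 higher and 1 lower, also without AME-d21 replicate 4, and 4 in Con livers, with 3 higher and 1 lower. Over the 27861 gene windows of the genome 42.9% were called higher and 2.82% lower in AME livers, and 38.6% higher and 4.12% lower in Con livers. Irs2 was the lower member in both, at 13.7% ± 1.25 in AME-d21 and 19.3% ± 2.73 in AME-d0 (limma, adjusted p = 0.0145), and 13.7% ± 3.28 in Con-d21 and 22.1% ± 2.84 in Con-d0 (SD, n = 5 each; limma, adjusted p = 0.0047). Pik3r1 was higher in both, at 23.5% ± 1.51 in AME-d21 and 18.2% ± 2.01 in AME-d0, and 24% ± 0.465 in Con-d21 and 18.8% ± 1.53 in Con-d0 (SD, n = 5 each). Its AME call was lost without AME-d21 replicate 3, at 5.03 points, and without AME-d0 replicate 1 or 2, at 4.74 and 5.09 points. Socs3 was also higher in both, at 1.99% ± 0.527 in AME-d21 and 0.339% ± 0.144 in AME-d0, and 2.18% ± 0.420 in Con-d21 and 0.296% ± 0.0897 in Con-d0 (SD, n = 5 each). Akt1 was called in Con livers, at 39.8% ± 1.78 in Con-d21 and 33.9% ± 1.84 in Con-d0 (limma, adjusted p = 0.023), and had 38% ± 3.44 in AME-d21 and 35% ± 0.536 in AME-d0 (SD, n = 5 each; limma, adjusted p = 0.329). The Con call of Akt1 was lost without Con-d21 replicate 4, at 5.37 points, and without Con-d0 replicate 1, at 5.27 points. With a coverage minimum of 20 reads Akt2 was called lower in both, at -2.30 points in AME livers and -3.51 points in Con livers.

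**Figure D4:**
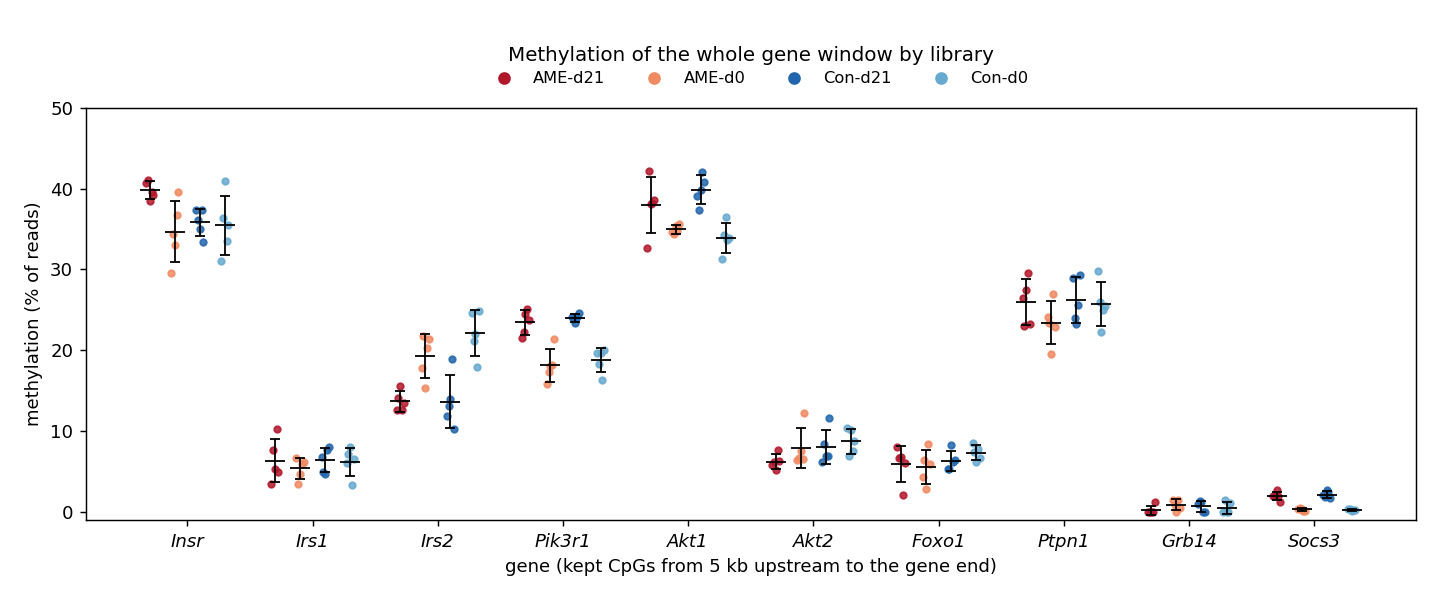
Methylation in percent of reads (vertical axis) summed over the kept CpGs of each gene window, with 1 point per library, the mean as a bar and the SD as whiskers, for AME-d21, AME-d0, Con-d21 and Con-d0. Irs2 lies lower at d21 than at d0, Pik3r1 higher, and Socs3 and Grb14 lie near 0 in all 4 groups.

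Single CpGs were called at p under 0.001 without adjustment and a difference of at least 10 points, by a quasi-binomial test. In AME livers 23 of 809 were called, 9 higher and 14 lower, beside 2.56% higher and 0.553% lower over all 922846 CpGs. In Con livers 30 were called, 10 higher and 20 lower, beside 2.48% higher and 0.73% lower over all CpGs. Irs2 held 9 of the calls in AME livers and 15 in Con livers, all lower, and 17 CpGs were called in both comparisons. Many of these Irs2 CpGs lay side by side in the bin at 3.76 kb, with the same depth in nearly every library. They are therefore not independent calls. The Irs2 CpG at chr8:11006061, in the sequence printed for 2.36 kb, fell by 49.7 points to 22% in AME-d21, against 71.7% in AME-d0 (quasi-binomial test over all CpGs, p = 0.000157). The Insr CpG at chr8:3252922 fell by 52.1 points to 30.7% in AME-d21, against 82.8% in AME-d0, and fell by 55.8 points to 24.8% in Con-d21, against 80.5% in Con-d0. The Pik3r1 CpG at chr13:101706569 rose by 48.3 points to 72.2% in AME-d21, against 23.9% in AME-d0, and by 41.8 points to 69.2% in Con-d21, against 27.3% in Con-d0. The only Ptpn1 CpG called lower, at chr2:167960071, fell by 34.3 points to 14% in AME-d21, against 48.3% in AME-d0 (quasi-binomial test over all CpGs, p = 0.000456). That call was lost in 7 of 10 fits that left out a library, namely any of AME-d21 replicates 1, 2, 3 and 4 or AME-d0 replicates 1, 4 and 5, with values from -34.9 to -31.9 points. A Socs3 CpG at chr11:117968098 rose by 25.2 points to 26.3% in Con-d21, against 1.06% in Con-d0. The counts of called CpGs moved with single libraries. The AME count was 14 without AME-d0 replicate 1, 15 without AME-d0 replicate 5 or AME-d21 replicate 2, 17 without AME-d21 replicate 4 and 10 without AME-d0 replicates 1 and 3, and the Con count was 19 without Con-d21 replicate 4.

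The rest of the pathway was read through a list of 43 other genes with 608 bins, from receptor relatives and adaptors to the mTOR branch. In AME livers 152 of these bins were called higher and 26 lower at d21, or 25% and 4.28%, beside 32.1% and 2.56% of all bins. In Con livers 117 were higher and 29 lower, or 19.2% and 4.77%, beside 26.7% and 2.98% of all bins. Medians were 2.71 points in AME livers and 1.73 points in Con livers, where all bins had 7.79 and 6.40. Without AME-d21 replicate 4 the AME calls were 141 higher and 24 lower, or 23.2% and 3.95%. The values that follow are each of 1 bin, the one that changed most in its gene. A bin of Rptor, a partner of mTOR, at chr11:119696401-119696600, fell to 31.4% ± 5.67 in AME-d21, against 80.2% ± 9.24 in AME-d0, and a bin of Prkcz, an atypical protein kinase C, at chr4:155345801-155346000, rose to 53.6% ± 6.10 in AME-d21, against 8.15% ± 2.40 in AME-d0 (SD, n = 5 each). Of 5 genes that insulin controls in liver, 4 had bins, 29 in all, of which 7 were called higher and 6 lower in AME livers, 9 and 6 without AME-d21 replicate 4, and 6 higher and 5 lower in Con livers. A bin of Pck1, a key enzyme of glucose production, at chr2:173156001-173156200, fell to 31.2% ± 8.12 in Con-d21, against 80.8% ± 7.43 in Con-d0 (limma, adjusted p = 4.35e-05), and a bin of Srebf1, which drives lipid synthesis, at chr11:60203801-60204000, fell to 34.2% ± 20.6 in AME-d21, against 70.3% ± 7.43 in AME-d0 (SD, n = 5 each; limma, adjusted p = 0.00563).

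Markers of the cell types of the liver held called bins too, which are read beside the 32.1% higher and 2.56% lower of all bins in AME livers and the 26.7% higher and 2.98% lower in Con livers. Among bins of hepatocyte markers, 14 of 31 were called lower and 3 higher in AME livers, and 15 lower and 3 higher in Con livers, so that 45.2% and 48.4% were lower. Erythroid and haematopoietic markers had 24 of 44 bins higher in both, or 54.5%. Endothelial markers had 31 of 79 bins higher in AME livers and 24 in Con livers, or 39.2% and 30.4%, and Kupffer cell markers 8 of 22 in AME livers and 9 in Con livers, or 36.4% and 40.9%. Lower calls in these 3 lists were 1, 4 and 2 in AME livers and 3, 5 and 1 in Con livers. Without AME-d21 replicate 4 the AME counts of higher bins were 2, 23, 31 and 7 over the 4 lists, in the order given, and of lower bins 14, 1, 3 and 2. The mean promoter level of the hepatocyte markers, over 3 promoters of 10 listed genes, was 15.6% to 17.3% in AME-d21 and 38.6% to 44.3% in AME-d0 libraries, and 11.3% to 20.2% in Con-d21 and 40.5% to 43.5% in Con-d0 libraries. For the erythroid and haematopoietic markers, over 6 promoters, it was 46.2% to 54.8% in AME-d21 and 14.6% to 22.7% in AME-d0 libraries, and 45.4% to 54.4% in Con-d21 and 20.5% to 22.2% in Con-d0 libraries. Among these the Klf1 promoter was at 0 at d0. The endothelial markers, over 3 promoters, had 38.3% to 42.2% in AME-d21 and 9.65% to 15.2% in AME-d0 libraries, and 38.5% to 41.3% in Con-d21 and 13.1% to 22.4% in Con-d0 libraries. The Kupffer list had a single promoter, at 71.9% to 86.7% in AME-d21 and 61.4% to 71.5% in AME-d0 libraries, and 78.2% to 88.5% in Con-d21 and 62.5% to 80.1% in Con-d0 libraries. In ground liver a shift in the cell types and a change of methylation within a cell type cannot be told apart, and the part of the cell types in the age differences was not tested.

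The study's question was whether the maternal environment altered the methylome, which is the comparison of AME with Con at each age. The paper reports many differentially methylated regions between AME and Con livers, at d0 and at d21. It called single cytosines at p under 0.001 and a difference of 10%, and its methods do not name the test. The bins here needed a p adjusted over all bins of the genome, which is a different rule. Why the paper's calls and the counts below differ was not tested. No member bin was called at either age: limma called 0 of 147 at d21 and 0 at d0, beside 0% of all bins in each. At an unadjusted p under 0.05 there were 6 at d21, beside 5.07% of all bins, and 9 at d0, beside 5.7%. The quasi-binomial test per bin also called 0 at both ages. Differences between the means ran from -20.8 to 14.1 points at d21 and from -20.9 to 14 points at d0, and 127 of 147 bins at d21 and 120 at d0 differed by less than 5 points. Single CpGs gave the same count: the quasi-binomial test called 0 of 809 at either age, beside 0.000217% of all CpGs at d21 and 0.000542% at d0, and 8 and 10 had an unadjusted p under 0.05, beside 1.61% at d21 and 1.68% at d0. Without the overdispersion term 1 CpG was called at d21 and 2 at d0. That form of the test was run on the member CpGs only, so no share over all CpGs stands beside these counts. Without AME-d21 replicate 4 the d21 counts of called bins and CpGs were also 0.

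A few bins had groups that did not overlap. At d21 these were 2 of 147, beside 0.892% of all bins. The single CpG of Akt1 at 12.4 kb had 66.7%, 70.6%, 61.5% and 81% in 4 AME-d21 libraries, against 86.7%, 93.3%, 90.5%, 83.3% and 100% in Con-d21 libraries, a difference of -20.8 points (limma, adjusted p = 0.968). The Pik3r1 CpG at 61.5 kb had 80%, 86.7% and 83.3% in 3 AME-d21 libraries, against 66.7%, 68.8%, 77.8%, 68.8% and 64.3% in Con-d21 libraries, a difference of 14.1 points (limma, adjusted p = 0.968). At d0 a single bin did not overlap, beside 1.05% of all bins. It lay at 0.348 kb in Akt2, over 15 CpGs with 270 to 870 reads per library, and had 0, 0.163%, 0, 0 and 0 in AME-d0 libraries, against 0.333%, 0.690%, 0.513%, 0.345% and 0.393% in Con-d0 libraries (limma, adjusted p = 0.867). Both groups there were below 1%.

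Bins that changed with age varied in how close the environments were. The Pik3r1 CpG at 61.5 kb, with the largest age difference in AME livers, had 30.7% ± 12.3 in AME-d0, against 51.5% ± 13.6 in Con-d0 (SD, n = 5 each; limma, adjusted p = 0.867), beside its difference at d21 given above. The Insr CpG at 28.5 kb had 92.8% ± 7.62 in AME-d21 and 91% ± 5.26 in Con-d21, and 44.6% ± 10.7 in AME-d0, against 58.8% ± 9.35 in Con-d0 (SD, n = 5 each; limma at d0, adjusted p = 0.874). Other bins lay closer. The Irs2 bin at 3.76 kb had 34.9% ± 9.51 in AME-d21 and 34.3% ± 3.74 in Con-d21, and 68% ± 9.58 in AME-d0, against 74.8% ± 6.50 in Con-d0 (SD, n = 5 each). The Foxo1 intron bin of 3 CpGs had 7.51% ± 3.10 in AME-d21 and 7.29% ± 2.88 in Con-d21, and 27.3% ± 6.65 in AME-d0, against 27.9% ± 3.80 in Con-d0 (SD, n = 5 each). In the Irs1 exon at 3.72 kb AME-d21 was lower, at 37.3% ± 9.62, than Con-d21, at 49.2% ± 7.18 (SD, n = 5 each; limma, adjusted p = 0.968), and the groups overlapped. Over whole gene windows 0 of 10 were called at either age by limma. For Insr the AME-d21 libraries had 40.7%, 41.1%, 38.4%, 39.5% and 39.2%, against 37.3%, 36.1%, 35%, 37.4% and 33.4% in Con-d21 libraries. These did not overlap, with a difference of 3.93 points (limma, adjusted p = 0.9996). The share of all gene windows without overlap was not counted, so it is not known whether this is unusual. The test of whether the age change differed between AME and Con, the interaction over all 20 libraries, called 0 of 147 member bins by limma and 0% of all bins. Unadjusted, 10 members had a p under 0.05, beside 5.17% of all bins, and the lowest adjusted p among members was 0.914. Without AME-d21 replicate 4 the interaction also called 0 members.

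**Figure D5:**
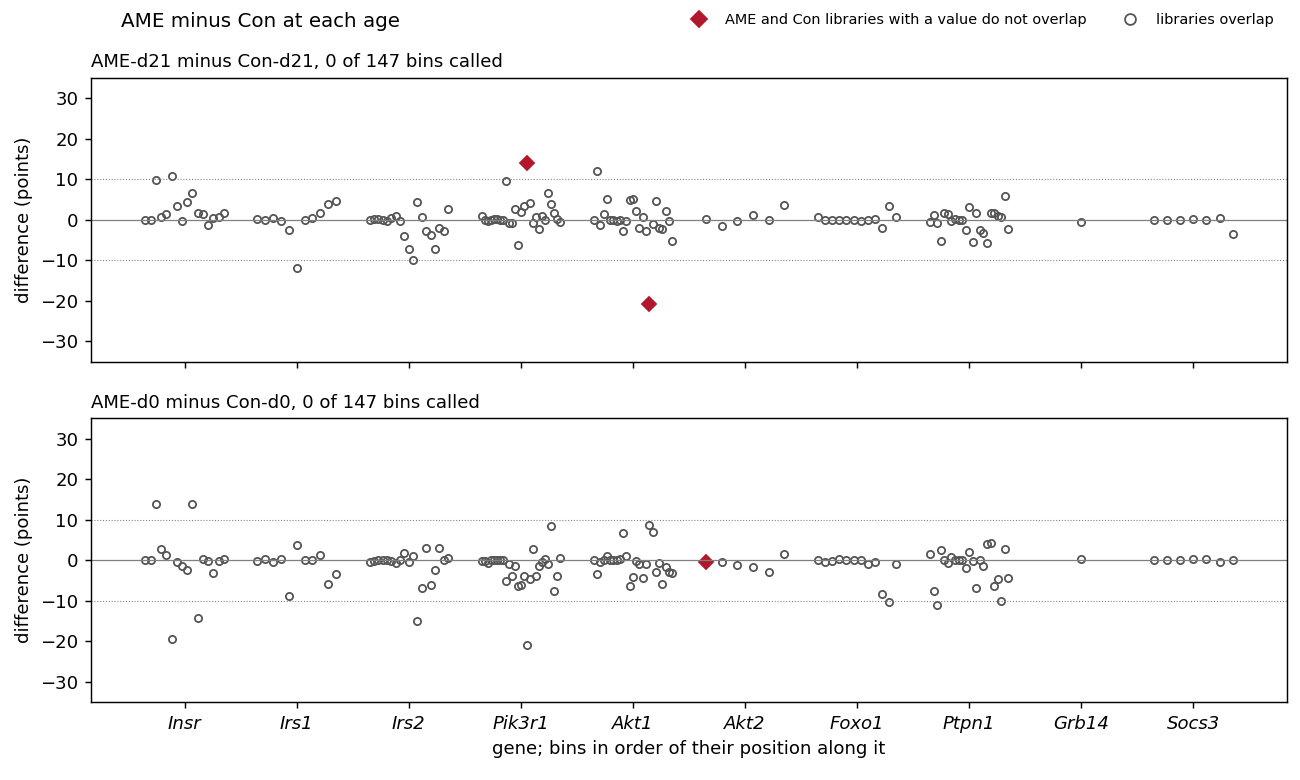
Difference between AME and Con in percentage points (vertical axis) for each of the 147 member bins, by gene and in order along it, at d21 (upper panel) and d0 (lower panel), with dotted lines at 10 points either way. Diamonds mark the 2 bins at d21 and the 1 bin at d0 whose AME and Con libraries did not overlap, and most bins lie within 5 points of 0.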

How the data were processed

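RRBS libraries of 20 livers were analysed, 5 per group. Per the labels, reads were processed with Bismark, BWA, FastQC and Trim Galore on build mm10, credited to the submitters' processing notes, where no version is given. Each deposited file listed, per CpG, the methylated and unmethylated read counts and their percent methylation, as the authors made them. Whether duplicate reads were removed is not stated in the sources used here, so limits given from depth cover counting error only. Methylation was recomputed from the deposited counts. Libraries held 23248139 to 45769589 reads over 1906827 to 2265571 CpG entries.

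CpGs with at least 10 reads in at least 3 libraries of each group were kept and summed into 200 bp bins, into gene windows (5 kb upstream to the gene end) and into promoters (1 kb either side of the TSS). A library with under 10 reads in a unit was left out of it. The log2 ratio of methylated to unmethylated reads, with a pseudocount of 1 read, was tested with limma 3.58.1 in R 4.3.3 (data.table version 1.17.8) over all units of the genome, with Benjamini-Hochberg adjustment, in the libraries of the 2 groups compared. Gene windows and promoters were called at an adjusted p under 0.05 alone. CpGs were tested by a quasi-binomial model. Tests were two-sided, and the fits were tested on simulated data. Figures used Python 3.11.15, numpy 2.4.6, pandas 2.3.3 and matplotlib 3.10.9. The members, lists and tests were chosen with earlier results of these data known. Named bins were up to 3 called bins per gene and direction, largest change first, and the bins whose AME and Con libraries did not overlap. Some bins outside this rule are described too, among them the Irs2 bins at 3.16 kb, 21.8 kb and 22.0 kb. Replicate numbers were not treated as pairs in the main fits. Replicate libraries differed beyond sampling noise, and none was counted as a duplicate. Alternatives were the coverage minimum, difference minimum, pseudocount, bin width, test, samples in the fit, replicate block and leaving out libraries. Calls per gene and in the lists without AME-d21 replicate 4 were added after seeing the data. Some items that met these rules are not reported here.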

Additional observations from a re-analysis of the deposited data

Results flagged for a closer look

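In groups of 5 libraries, the highest or lowest library stood far from the other 4 in 15 of 203 groups tested, or 7.39%. Chance gives about 1 in 20 for independent values with a normal spread. Levels here are percentages, some near 0, and bins, windows and promoters of a gene share reads. That rate need not hold for them, so 7.39% cannot be read as an excess. Of the 15 groups, 3 were in bins of several CpGs with levels well above 0: the Insr bin at 26.7 kb, with 86% in AME-d0 replicate 4, the Irs2 bin at 2.96 kb, with 53.7% in AME-d21 replicate 5, and the Ptpn1 bin at 43.8 kb, with 49.1% in AME-d0 replicate 4. Among single-CpG bins, the Irs1 bin at 46.1 kb had 50% in AME-d0 replicate 5, the Insr bin at 16.3 kb had 92.3% in AME-d21 replicate 1 with 100% in the others, and the Akt1 bin at 12.4 kb had 100% in Con-d0 replicate 3. The Akt2 window had 12.2% in AME-d0 replicate 5, against 7.61% in the nearest library. The rest were levels near 0, where a few reads set a library apart. These were the Grb14 window with 1.25% in AME-d21 replicate 5, and the Akt2 bin at 0.348 kb with 0.163% in AME-d0 replicate 2 and 0.278% in Con-d21 replicate 4. Among promoters they were Insr with 0.154% in AME-d21 replicate 5 and 0.559% in Con-d0 replicate 1, Irs2 with 0.450% in Con-d0 replicate 5, Foxo1 with 0.491% in AME-d0 replicate 5 and Socs3 with 0.556% in AME-d21 replicate 2. Outside the measured genes, AME-d21 replicate 4, labelled male, had 2.88 X-chromosome reads per 100 autosomal reads, against at most 1.55 in the other libraries.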

How the results depend on the processing

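The counts of called bins, 45 in AME livers and 39 in Con livers with age, stayed within 1.5 times under most settings. They dropped under a difference minimum of 20 points (23 in AME and 23 in Con livers), a coverage minimum of 20 (18 in AME and 20 in Con livers) and 10 reads in all 20 libraries (23 in AME and 24 in Con livers). The last pair tested fewer CpGs. Leaving out a library gave 42 to 46 in AME and 32 to 36 in Con livers. Called gene windows then ran from 2 to 3 in AME and 3 to 4 in Con livers, and were 4 in AME and 5 in Con livers with a coverage minimum of 20 or with 10 reads in all 20 libraries. Called CpGs, leaving out a library, ran from 14 to 22 in AME and 19 to 27 in Con livers, and with AME-d0 replicates 1 and 3 left out the AME count was 10. The likelihood-ratio test without overdispersion called 80 in AME and 83 in Con livers, 1 for AME-d21 minus Con-d21 and 2 for AME-d0 minus Con-d0, and limma per CpG called 59 and 60 for age. Shares over all bins, gene windows or CpGs were not counted under these alternatives, except for bins without AME-d21 replicate 4. The AME with Con comparisons of bins and gene windows, and the interaction, gave 0 calls under each setting run.

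With the replicate block, 42 AME and 37 Con bins and 2 AME and 3 Con gene windows were called. The labels do not say whether the numbers pair libraries. The mean of its group was subtracted from each library in every bin, and the remaining deviations were correlated between groups. For libraries of the same number these correlations of deviations ran from -0.014 to 0.0616. At d0, the deviations of 3 AME-d0 libraries correlated best with those of the Con-d0 library of their own number, and 0 libraries matched in this way in each other comparison. Whether libraries of the same number shared a processing step at d0 was not tested.

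Signs turned only in uncalled gene windows. With a coverage minimum of 20, Ptpn1 was at -0.927 points for AME age, Irs1 at -0.0632 for Con age, Irs1 at 0.487 for AME-d21 minus Con-d21 and Ptpn1 at 0.497 for AME-d0 minus Con-d0. Leaving out a library turned signs within these ranges, in points: -0.723 to 1.74 for Insr, Con-d21 minus Con-d0, -0.494 to 0.663 for Irs1, Con-d21 minus Con-d0, -0.384 to 1.52 for Ptpn1, Con-d21 minus Con-d0, -0.0124 to 1.69 for Irs1, AME-d21 minus AME-d0, -0.317 to 1.32 for Foxo1, AME-d21 minus AME-d0, -2.03 to 0.558 for Insr, AME-d0 minus Con-d0, -1.06 to 0.642 for Irs1, AME-d21 minus Con-d21, -0.832 to 1.34 for Irs2, AME-d21 minus Con-d21, -0.889 to 0.591 for Foxo1, AME-d21 minus Con-d21 and -1.15 to 0.525 for Ptpn1, AME-d21 minus Con-d21. Of 663 values for named bins 30 lost their call, and of 183 for named CpGs 54 did; the causes were not tested. Depth limits single-CpG bins most, where few reads set each percentage.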
